A study of Rattus norvegicus with 21 samples.

Results

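The 77 genes described here encode most of the proteins of the cytosolic ribosome and a few close relatives. They were chosen by symbol alone: symbols starting with Rpl or Rps and a digit, with Rplp0, Rplp1 and Rpsa added, S6 kinase and pseudogene symbols left out, and 1 row kept per symbol. They are 77 of the 16245 gene symbols in a rat expression table of 34976 rows, in which 78 rows match because Rps3a has 2. By role they comprise 42 proteins of the large subunit, 28 of the small subunit, 6 paralogs named after a subunit protein (Rpl22l1, Rpl36al, Rpl39l, Rpl3l, Rpl7l1 and Rps4y2), and Rps19bp1, a binding partner of Rps19 that is not a subunit protein. Rplp2, Rps27a, Rpl7a, Rpl8, Rpl36, Rps19 and Rps7 are not among the 77 and were not part of the sums and counts. Sums and shares below therefore do not cover the whole ribosome.

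The ribosome joins a small subunit, which reads the messenger RNA, to a large subunit, which forms the peptide bond and lets the growing chain out through a tunnel. Its proteins are needed in near-equal amounts, and their messenger RNAs belong to a class that starts with an unbroken run of pyrimidines, the terminal oligopyrimidine or TOP motif, through which the mTOR pathway and the RNA-binding protein LARP1 control their translation. Neurons make these messages in the cell body and also carry them into axons and dendrites.

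Each of the 21 samples is the content of a single neuron, drawn into the patch electrode after recording and amplified as polyadenylated RNA. All neurons were taken from hippocampi of embryonic day 18 Wistar rats of a VGAT-Venus transgenic line, in which the Venus protein reports the vesicular GABA transporter of inhibitory neurons, and all were cultured for 17 days. The 5 pyramidal and 6 GABAergic neurons grown with glia came from cultures that kept their glial cells, for which the labels name no antimitotic agent. The 5 purified GABAergic neurons came from cultures given the antimitotic agents FdU and U at 5 µM, 24 hours after dissection and for 36 hours. The 5 OCM-treated GABAergic neurons came from cultures purified in the same way, to which medium conditioned by oligodendrocytes was added on day 3. Those oligodendrocytes were raised from the cortex of Wistar rats of postnatal day 2. The antimitotic agents and the loss of glia go together in this design, so their effects cannot be told apart. The labels name no animal or culture, so each group counts as 1 sample. No p-value is given, and every SD or range below describes the spread between single cells.

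Depth ran from 1817671 to 25160911 reads per cell, and 0 pairs of cells held identical values. A floor of 3 reads corresponds to a normalized value between 0.909 and 17.7, depending on the cell. Gad1, the main GABA-synthesizing enzyme, was at 0 in all 5 pyramidal cells and above 0 in 6 of 6, 4 of 5 and 5 of 5 GABAergic cells with glia, purified and OCM-treated. Slc17a7, the glutamate transporter of pyramidal neurons, was above 0 in 4 of 5 pyramidal cells and at 0 in every GABAergic cell. Pyramidal cell 3 goes against its label: it had Slc17a7 at 0 and held 278859 of Mbp, a myelin gene, 59681 of the astrocyte gene Apoe and 12526 of the microglial gene Aif1. Pyramidal cell 4 had 7887 of Slc17a7 but also 95386 of Mbp. Some results on pyramidal cells are therefore given with and without these 2, an alternative chosen after seeing the data. Where no value without them is given, the result includes both cells. Sample titles start with S, P or ech, which the labels do not explain. All 5 OCM-treated, 4 of 5 purified, 1 of 6 glia-cultured GABAergic and 2 of 5 pyramidal cells are titled S, so title and culture cannot be told apart.

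The starts of these genes carry long pyrimidine runs. In RefSeq promoters of assembly GRCr8, 61 of the 77 genes had an entry, 56 of them large or small subunit genes. Within 20 bases either side of the annotated start, the longest unbroken run of C and T had a median of 10 bases in the 56 subunit genes and 5 bases over all 27457 promoters of that length. A run of at least 8 bases stood in 42 of 56 subunit genes (75.0%) and in 15.5% of all promoters. The sequences of genes whose values are given below show the range, from 13 bases in Rpl10 to 3 in Rpl41. Rps23, which has the longest run with 21 bases, was picked after the runs were measured. Each line gives 40 bases before the annotated start and 20 from it, 5′ to 3′ on the gene's strand. Capitals mark the longest run within 20 bases of the start, so a longer run farther upstream, as in Rps6 and Rpl41, stays in lower case.
Rps23 (chr2:23814477-23814536, plus strand): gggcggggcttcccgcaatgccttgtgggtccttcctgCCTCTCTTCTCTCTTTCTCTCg
Rpl10 (chrX:157205810-157205869, plus strand): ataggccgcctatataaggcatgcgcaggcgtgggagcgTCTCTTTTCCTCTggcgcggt
Rpl31 (chr9:49143071-49143130, plus strand): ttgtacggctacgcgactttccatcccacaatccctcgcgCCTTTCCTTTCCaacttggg
Rpl5 (chr14:1995206-1995265, minus strand): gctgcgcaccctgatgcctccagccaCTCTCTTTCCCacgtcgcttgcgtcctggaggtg
Rplp1 (chr8:71290853-71290912, minus strand): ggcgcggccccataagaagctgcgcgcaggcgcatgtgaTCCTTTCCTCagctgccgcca
Rpl39 (chrX:121195877-121195936, minus strand): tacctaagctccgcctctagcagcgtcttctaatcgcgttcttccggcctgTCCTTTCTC
Rplp0 (chr12:46718371-46718430, minus strand): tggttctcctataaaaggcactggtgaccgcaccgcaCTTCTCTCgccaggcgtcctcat
Rpsa (chr8:128728839-128728898, plus strand): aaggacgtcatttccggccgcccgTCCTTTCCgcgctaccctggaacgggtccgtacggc
Rps6 (chr5:106420521-106420580, minus strand): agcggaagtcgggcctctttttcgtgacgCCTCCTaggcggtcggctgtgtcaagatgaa
Rpl3 (chr7:113507971-113508030, minus strand): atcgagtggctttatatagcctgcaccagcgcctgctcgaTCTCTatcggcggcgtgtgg
Rpl41 (chr7:1563478-1563537, minus strand): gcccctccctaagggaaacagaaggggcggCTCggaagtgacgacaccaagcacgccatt
Rps19bp1 (chr7:113693004-113693063, minus strand): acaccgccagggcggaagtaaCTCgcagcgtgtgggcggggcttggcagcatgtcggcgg
In the first 11 lines, all subunit genes, the run has 8 or more bases in 8. Rps19bp1, which is not a subunit gene, has a run of 3.

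**Figure D1:**
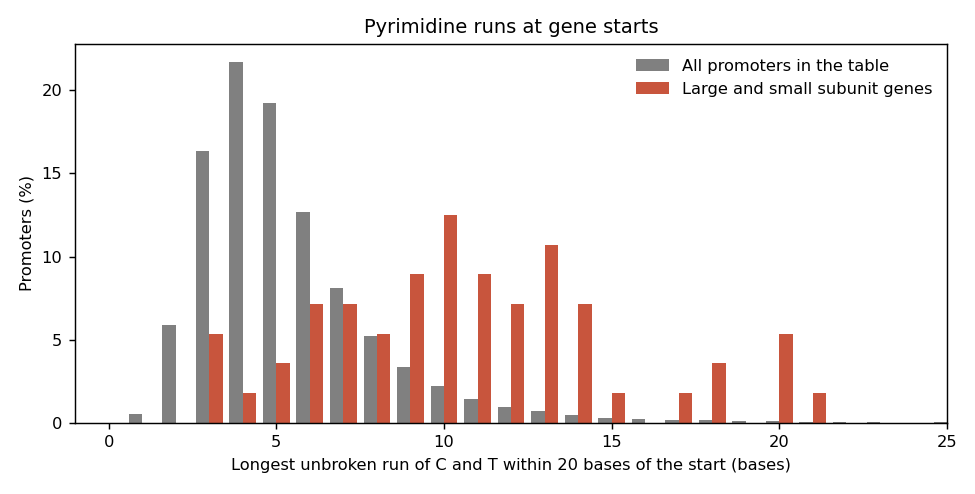
Percent of promoters (vertical axis) by the length in bases of the longest run of C and T within 20 bases of the annotated start (horizontal axis), for 56 ribosomal subunit genes (red) and 27457 promoters (grey). The subunit genes centre on a median of 10 bases and all promoters on 5.

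Fixed motifs on the gene's strand in the same window gave the same order. CTTTCC stood in 17 of 56 subunit genes (30.4%) against 1.79% of all promoters, CTTTTC in 8 (14.3%) against 1.44%, and CTCTTTC in 10 (17.9%) against 0.594%. Over the whole 300 bases and both strands, CTTTCC was found in 27 of 56 (48.2%) against 26.4%. The motifs share letters and can overlap one another, and a match is a description of the letters only.

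Ribosomal protein genes took a smaller share of all values in GABAergic neurons grown with glia than in purified and OCM-treated ones, with overlap between single cells. The pyramidal mean was also above the glia-cultured GABAergic one, but by less than the pyramidal SD. The share per pyramidal cell was 0.480, 0.821, 1.35, 1.10 and 0.554%. In GABAergic cells with glia it ran from 0.459 to 0.809% with a median of 0.574%. In purified cells it was 1.14, 0.759, 0.814, 1.22 and 0.926%, and in OCM-treated cells 1.08, 0.955, 1.04, 0.895 and 0.490%. Thus 4 of 5 purified cells and 4 of 5 OCM-treated cells lay above every glia-cultured GABAergic cell, and the low one in the OCM group was cell 5. The means were 0.863 ± 0.368% (SD, n = 5) in pyramidal cells, 0.606 ± 0.123% (n = 6) in GABAergic cells with glia, 0.970 ± 0.199% (n = 5) in purified and 0.892 ± 0.236% (n = 5) in OCM-treated cells. The exact 95% binomial interval of a cell's share (Clopper-Pearson) was at most 0.0263 percentage points wide, so counting error is small beside the spread between cells.

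The purified mean was 1.60 times the glia-cultured one, a difference of 0.364 points, which is larger than either group's SD. The OCM-treated mean was 1.47 times the glia-cultured one, 0.286 points apart and also past both SDs. OCM-treated and purified cells differed by -0.0782 points, less than either SD, and the sign turned to 0.0222 without OCM-treated cell 5. The pyramidal mean exceeded the glia-cultured GABAergic one by 0.256 points, less than the pyramidal SD. Without pyramidal cell 3 the difference was 0.133 points, and without pyramidal cells 3 and 4 it was 0.0123 points. Among cells titled S, purified cells exceeded the 1 glia-cultured cell by 0.305 points and OCM-treated cells did so by 0.216 points, while pyramidal cells differed from it by -0.0256 points. These comparisons share groups and are not independent of each other.

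Other properties of the cells also differed between the groups. The glia-cultured GABAergic cells were sequenced to 5587208 to 25160911 reads and the purified ones to 2442814 to 7821375. Share and reads had a Spearman rho of -0.47 (r = -0.46) over the 16 GABAergic cells and of -0.21 (r = -0.17) over all 21 cells. With every cell thinned to 1817671 reads, the purified minus glia-cultured difference was 0.367 points. Rows without a gene symbol took 28.9, 16.2, 23.0 and 17.5% of values in pyramidal, glia-cultured GABAergic, purified and OCM-treated cells. Their part and the share had a Spearman rho of 0.45 over all 21 cells and 0.28 over the 16 GABAergic cells. With only rows that have a symbol in the total, the difference was 0.624 points for pyramidal and 0.536 points for purified cells against glia-cultured GABAergic cells. Mitochondrial rows took 7.99, 4.54, 6.61 and 4.62% of values in the same order. Share and mitochondrial part had a Spearman rho of 0.34 over all 21 cells and 0.15 over the 16 GABAergic cells. Shares were also taken from a total without mitochondrial rows, whose values are not given here, and no cause was tested.

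**Figure D2:**
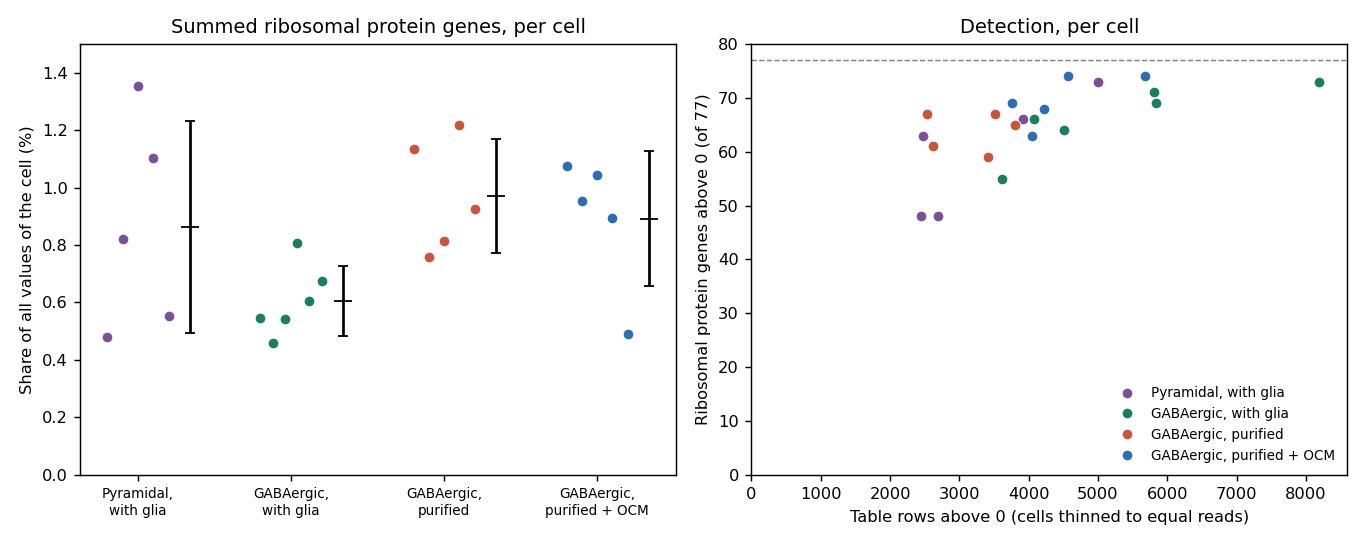
Left: summed ribosomal protein genes as a percent of all values, 1 point per cell, with the group mean and SD as bars. Right: how many of the 77 genes were above 0 in each cell against the number of rows above 0, after thinning all cells to equal reads (the dashed line marks 77). On the left, 4 of 5 purified and 4 of 5 OCM-treated cells lie above all 6 GABAergic cells with glia.

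Most of these genes were found in most cells. Of the 77, 18 (23.4%) were above 0 in all 21 cells, against 248 of 16245 symbols (1.53%). A further 19 brought the number above 0 in at least 20 cells to 37, and 67 were above 0 in at least 15. Rpl39l and Rps4y2 were at 0 in every cell, and Rpl3l was above 0 in 1. Pyramidal cells held 48 to 73 of the 77, GABAergic cells with glia 55 to 73, purified cells 59 to 67 and OCM-treated cells 63 to 74. After thinning to equal reads the means were 59.6, 66.3, 63.8 and 69.6 in the same order. This number followed the number of all rows found in a cell, with rho = 0.76 and r = 0.67 over the 21 cells. Thinned purified cells had 2539 to 3808 rows above 0 and glia-cultured GABAergic cells 3609 to 8188.

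The mean summed level, unlike the mean share, was highest in pyramidal cells, an order that depends on pyramidal cells 3 and 4. These 2 cells had 171817 and 77970, while pyramidal cells 1, 2 and 5 had 40977, 88017 and 45292. Without cells 3 and 4 the pyramidal mean lies below the purified and OCM-treated means. It averaged 84815 ± 52703 (SD) in pyramidal cells, 47872 ± 7839 in GABAergic cells with glia, 69112 ± 11001 in purified cells and 60860 ± 10345 in OCM-treated cells. Large-subunit genes made up 65.5, 62.5, 65.2 and 64.0% of the summed large and small subunit values in these groups, and 55.9 to 73.4% in single cells. No single gene dominated: the gene with most of the values held 4.48 to 9.03% of a cell's summed ribosomal protein value, and 10 to 19 genes were needed to reach 50% of it. Transcript lengths were not used here, so values are compared between groups for the same gene and never between genes.

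Among the 18 genes above 0 in every cell were Rpl7, Rpl10, Rpl13, Rpl13a, Rpl18, Rpl19, Rpl21, Rpl27, Rpl35, Rpl41, Rplp1, Rps3a, Rps6, Rps16, Rps21, Rps25 and Rps27. Of these, 15 (83.3%) had their lowest group mean in GABAergic cells with glia, against 25.4% of all 248 such genes. Pyramidal cells held the highest mean for 13 (72.2%), against 35.5% of the 248. Without pyramidal cells 3 and 4 these counts were 13 lowest in glia-cultured GABAergic cells (background 23.0%), 8 highest in pyramidal cells (background 37.9%) and 9 highest in purified cells (background 20.6%). The coefficient of variation over all 21 cells ran from 45.0% for Rpl18 to 121% for Rpl41, whose values spanned 333 to 15401. Within groups, the median coefficient of variation of the 18 genes exceeded that of the 248 in all 4. It was 66.8% against 58.6% in pyramidal cells and 53.6% against 38.4% in GABAergic cells with glia. In purified cells it was 57.2% against 49.9%, and in OCM-treated cells 41.3% against 36.1%.

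The 18 genes also varied together from cell to cell. Over 153 pairs the median Spearman rho across 21 cells was 0.24 and 87.6% of pairs were above 0, against 0.0013 and 50.1% over the 30628 pairs of all 248 genes. With group means removed the median was 0.17 against 0.0026, so part of it lay between cells of one group. With each cell scaled to its total it was 0.29 against 0.074. All pairs share the same libraries and depth, so these values describe the 21 cells. A further limit applies to single genes: 68 of the 70 subunit genes have at least 5 like-named copies or pseudogenes in the GRCr8 gene table (983 in all), and the handling of reads that match several copies is not stated there or in the labels.

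**Figure D3:**
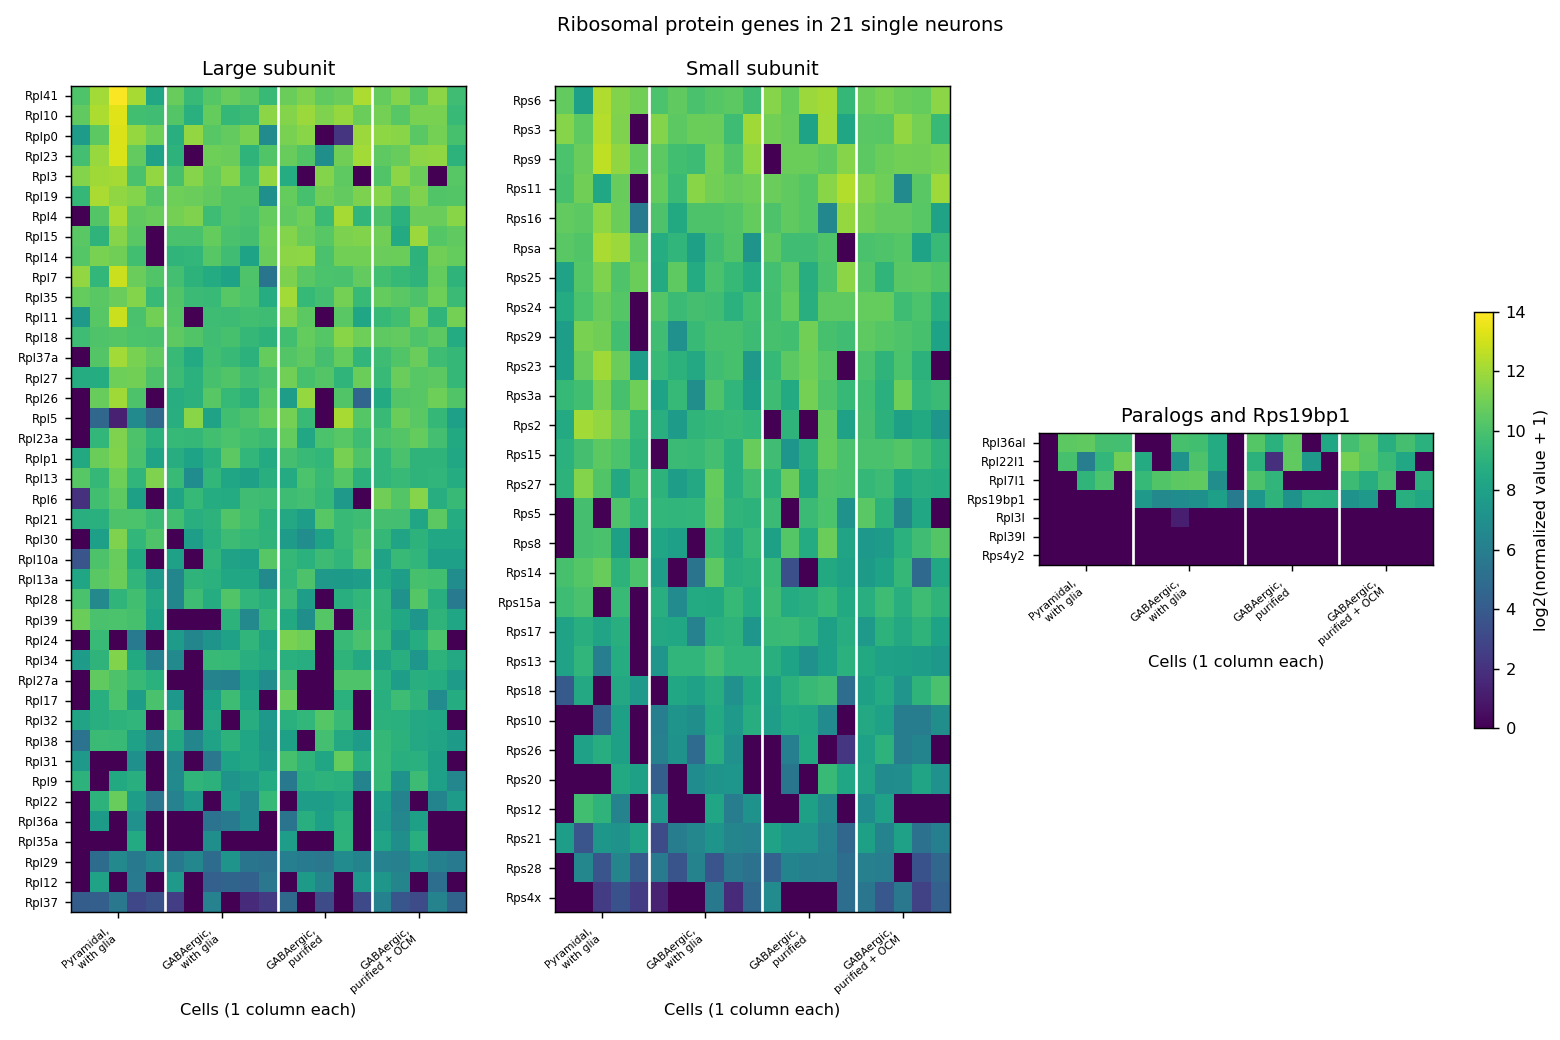
Colour gives log2(normalized value + 1) of ribosomal protein genes (rows, sorted by mean within large subunit, small subunit and others) in each of the 21 cells (columns, groups divided by white lines). Upper rows are filled in nearly every cell, lower rows hold many cells at 0, and Rpl39l and Rps4y2 are at 0 throughout.

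For single genes, a difference below is the mean of log2(normalized value + 1) over the cells of 1 group minus that of another, and it was taken for genes found above 0 in 3 or more of those cells. A gene at 0 in some cells of a group takes its difference largely from how many cells those are. A gene counts as higher or lower from a difference of 1 on, a rule of size that involves no test.

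Between pyramidal and GABAergic neurons with glia, ribosomal protein genes differed in both directions. Rpl39, which lines the exit tunnel, and Rpsa of the small subunit were higher in pyramidal cells, while Rpl5, which carries the small ribosomal RNA of the large subunit, and Rps19bp1 were lower. Of 73 genes measured, 22 were at least 1 higher (30.1%), against a background of 13.3% of all measured genes, and 25 were at least 1 lower (34.2%), against 64.2%. With no overlap between the cells of the groups, 2 genes, among them Rpsa, were higher, and Rpl5 and Rps19bp1 were lower, where 0.243% of all genes did not overlap as higher and 1.84% as lower. The median difference was 0.14 over the 73 genes and -2.05 over all genes, with 0.26 for large and -0.64 for small subunit genes. As the log2 ratio of group means, the 73 genes had a median of 0.57 and all genes -0.32, so the gap to all genes depends on the measure. Over genes above 0 in all 11 cells, a filter added after seeing the data, 23 of 26 were above 0 in difference, against 49.4% of all such genes. Without pyramidal cells 3 and 4 the median was -0.51 against -2.62 over all genes, with 15 higher (14.4% of all genes) and 33 lower (64.6% of all genes) of 73. The sign of the median also turned without cell 3 (-0.11), without cell 4 (-0.12), without glia-cultured cell 2 (-0.01) or 3 (-0.03), with cells scaled to one total (-0.07) and with one upper quartile (-0.70). Summed values of 9 oligodendrocyte markers ran from 0 to 322190 in the pyramidal and 0 to 1352 in the glia-cultured GABAergic cells, of 7 astrocyte markers from 789 to 64041 and 169 to 3114, and of 7 microglial markers from 0 to 23414 and 0. Of the markers measured, 4 of 5 oligodendrocyte and 2 of 5 astrocyte genes were at least 1 higher in pyramidal cells and 0 and 2 lower. Their part in these differences was not tested beyond the values given without the 2 cells.

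Between purified and glia-cultured GABAergic neurons, Rpl31 and Rpl36a were higher and Rpl3 and Rpl7l1 lower in purified cells. Of 74 genes measured, 18 were at least 1 higher (24.3%), against 11% of all genes, and 17 at least 1 lower (23.0%), against 64.4%. In no case did the cells of the groups separate, where 0.159% of all genes did so as higher and 1.51% as lower. The median difference was 0.42 over the 74 genes and -2.13 over all genes, with 0.51 for large and 0.37 for small subunit genes. Among genes above 0 in all 11 cells, 28 of 34 were higher in purified cells, against 43.6%, with a median of 0.65 against -0.18. Scaling to one upper quartile turned the median to -0.18, and cells titled S alone gave 0.02. As the log2 ratio of group means it was 0.55, against -0.47 over all genes, so the gap to all genes depends on the measure. Astrocyte markers summed to 0 to 1538 in purified cells, oligodendrocyte markers to 0 to 857 and microglial markers to 0 in both groups, and their part in the result was not tested.

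In OCM-treated against purified neurons the median difference of these genes was near 0. Rpl17 and Rpl7l1 were higher with OCM, and Rpl36a was lower. Of 74 genes, 23 were at least 1 higher (31.1%), against 56.0% of all genes, and 5 at least 1 lower (6.76%), against 16.4%. None separated the cells of the groups, where 0.817% of all genes did as higher and 0.233% as lower. The median difference was 0.10, against 1.40 over all genes, with 0.10 for large and 0.03 for small subunit genes. It was -0.01 without purified cell 5 and 0.44 without OCM-treated cell 5. It was -0.09 with the median over cells (all genes 0.27), -0.17 as the log2 ratio of group means (all genes 0.07) and 0.72 with one upper quartile (all genes 1.81), so the gap to all genes depends on the measure. Among genes above 0 in all 10 cells, 15 of 38 were higher, against 53.6%, with a median of -0.10 against 0.06. The number lower was 10 without OCM-treated cell 1, 11 without cell 2, 3 without cell 5 and 8 without purified cell 3. Of all genes, 19.3, 20.5, 17.4 and 17.7% were lower in these settings.

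For OCM-treated against glia-cultured GABAergic neurons the median difference of these genes was above 0 but short of 1, and 46 of 74 genes lay within 1 of 0. Rpl36al and Rpl39 were higher and Rps12 was lower with OCM. Of 74 genes, 23 were at least 1 higher (31.1%), against 20.3% of all genes, and 5 at least 1 lower (6.76%), against 44.4%. Rps6 was higher in every OCM-treated cell than in any glia-cultured cell, where 0.177% of all genes separated as higher and 0.517% as lower. The median was 0.58 against -0.72 over all genes, with 0.60 for large and 0.42 for small subunit genes, and 0.29 without glia-cultured cell 2. Cells titled S alone gave 0.13. Among genes above 0 in all 11 cells, 31 of 42 were higher, against 40.3%, with a median of 0.44 against -0.17. The number lower was 10 without OCM-treated cell 1 (all genes 44.8%) and 8 without cell 3 (all genes 42.1%). Astrocyte markers summed to 0 to 1226, oligodendrocyte markers to 0 to 9.16 and microglial markers to 0 to 0.509 in OCM-treated cells, and their part in the result was not tested.

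**Figure D4:**
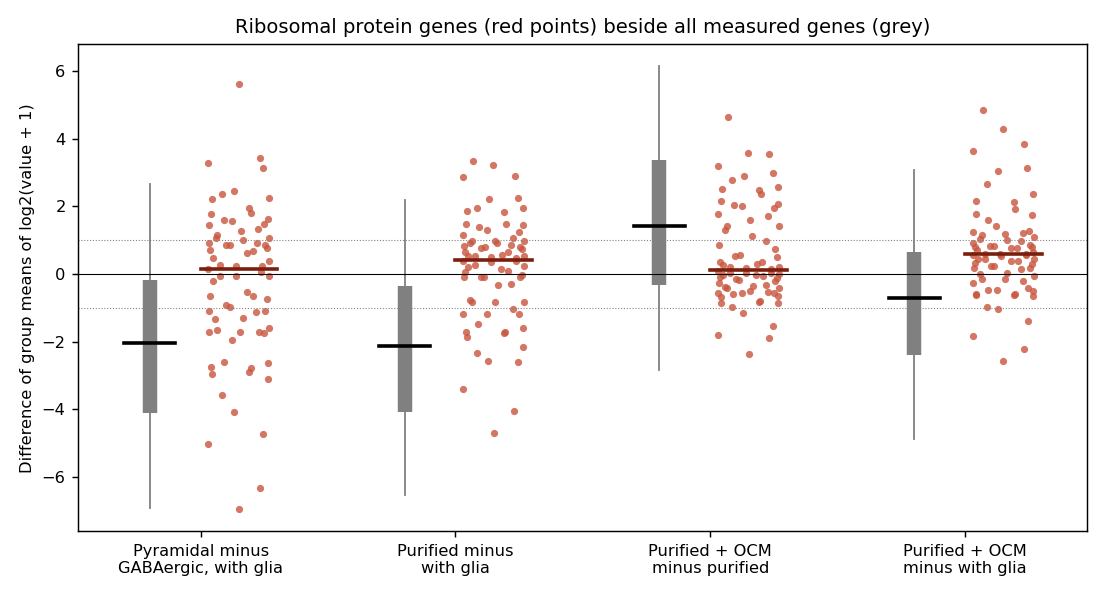
Difference of group means of log2(value + 1) in the 4 comparisons: each red point is 1 ribosomal protein gene and the red bar their median. Grey boxes give the middle 50% and thin lines the middle 90% of all measured genes, with the median in black, and dotted lines mark differences of 1 and -1. The red medians are 0.14, 0.42, 0.10 and 0.58 and the black ones -2.05, -2.13, 1.40 and -0.72; as log2 ratios of group means they were 0.57, 0.55, -0.17 and 0.43 against -0.32, -0.47, 0.07 and -0.34.

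Members of the large subunit's stalk, where elongation factors dock, differed in how evenly they were found. Rplp1 (chr8:66862139-66863483 in rn6), an acidic stalk protein, was above 0 in all 21 cells: 359, 1852, 2649, 1001 and 292 in pyramidal, 947, 729.7, 622, 2219 and 1125 in purified and 603, 1020.0, 546, 557 and 327 in OCM-treated cells, and 276 to 1423 with a median of 452 in glia-cultured GABAergic cells. All groups overlapped, and the differences of 0.77, 0.98, -0.83 and 0.15 for pyramidal against glia-cultured, purified against glia-cultured, OCM-treated against purified and OCM-treated against glia-cultured cells all stayed below 1 in size. Rplp0 (chr12:46791528-46794829), the stalk base, was 206, 1415, 9978, 3544 and 1918 in pyramidal cells, 108 to 3414 with a median of 1448 in GABAergic cells with glia, 2293, 2939, 0, 3.44 and 3749 in purified and 3146, 2908, 1358, 2151 and 988 in OCM-treated cells. Purified cell 3 had none and purified cell 4 had 2 reads, while the other 3 purified cells reached 2293 to 3749. Its difference of -2.56 in purified against glia-cultured cells, and of 3.57 between OCM-treated and purified cells, came with means of 1524 ± 1216, 1797 ± 1718 and 2110.2 ± 940.3 (SD) in glia-cultured, purified and OCM-treated cells, which overlap widely.

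Rpl5 (chr14:2860962-2867584), which binds the small ribosomal RNA of the large subunit and, when free, the p53 regulator Mdm2, had the largest difference of any subunit gene between pyramidal and glia-cultured GABAergic cells. It was 0, 23.6, 1.47, 97.9 and 27.9 in pyramidal cells and 262 to 2971 with a median of 968 in glia-cultured GABAergic cells. It was 2115, 720.2, 0, 4654 and 1270.3 in purified and 690.4, 1881, 1342, 631 and 237 in OCM-treated cells. Every pyramidal cell lay below every glia-cultured GABAergic cell, while purified cell 3 was at 0 among 4 high cells. The difference was -6.33 for pyramidal against glia-cultured cells, -7.11 to -5.46 with any 1 cell left out and -6.65 without pyramidal cells 3 and 4. Among cells titled S it was -8.37.

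Near the peptidyl transferase centre, Rpl3 and Rpl10 followed different patterns. Rpl10 (chrX:156438244-156440462), which joins late in the assembly of the large subunit, was 1535, 4872, 10176, 872 and 846 in pyramidal cells, 480.2 to 3083 with a median of 984 in GABAergic cells with glia, 2732, 3778, 2547, 3595 and 1827 in purified cells and 2149.6, 1327, 2328, 2306 and 712 in OCM-treated cells. The groups overlapped, with purified cells between 1827 and 3778, and the purified minus glia-cultured difference was 1.39. Rpl3 (chr7:121297356-121302742) was 2739.9, 4081, 4479, 1004 and 3336 in pyramidal cells, 851 to 3408 with a median of 2182 in GABAergic cells with glia, 403, 0, 2670.2, 1448 and 0 in purified and 1191, 3004, 1858, 0 and 1292 in OCM-treated cells. It was above 0 in all cells grown with glia and at 0 in 2 purified cells and 1 OCM-treated cell. The purified minus glia-cultured difference was -4.72 (-6.04 to -3.19 with any 1 cell left out), with means of 904 and 2069.

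Rpl39, Rpl31 and Rpl17 sit at the tunnel through which the new chain leaves, and each was missing in part of the cells. Rpl39 (chrX:123705110-123708217) was 1823, 1026, 1044, 957 and 274 in pyramidal cells, 0 to 650.1 with a median of 46.9 in GABAergic cells with glia, 362, 123, 1247, 0 and 686 in purified and 580.0, 330.2, 161, 540.3 and 296 in OCM-treated cells. It was at 0 in 3 of 6 glia-cultured GABAergic cells and above 0 in all pyramidal and OCM-treated cells, which gave differences of 5.61 and 4.27. Among cells titled S these were 1.07 and -0.91, so the second changed sign. Rpl31 (chr9:46086941-46090993), at the tunnel rim, was 189, 0, 0, 131 and 0 in pyramidal cells, 0 to 334 with a median of 147 in GABAergic cells with glia, 988, 553, 304, 1658 and 465 in purified and 664, 458, 469.9, 252 and 0 in OCM-treated cells. Of the purified cells, 4 lay above the highest glia-cultured cell, with means of 794 ± 545 and 158 ± 132 (SD), and the difference was 3.33, or 2.12 without glia-cultured cell 2. Rpl17 (chr18:70969726-70972836), also at the tunnel exit, was 1781, 0, 0, 495 and 0 in purified and 456, 789, 551, 107 and 402 in OCM-treated cells. The OCM-treated minus purified difference was 4.64 with 3 purified cells at 0, while the means were 461 and 455. In pyramidal cells it was 0, 436, 1041, 218 and 1027, and in glia-cultured GABAergic cells 0 to 793 with a median of 213.

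Further large-subunit genes named by the rule were Rpl41, Rpl36a, Rpl10a and Rpl35a. Rpl41 (chr7:2972900-2973977), one of the shortest proteins known, was 1113, 4288, 15401, 4540.5 and 333 in pyramidal cells, 694 to 1719 with a median of 1305 in GABAergic cells with glia, 1880.1, 2512, 1511, 1796 and 5033 in purified and 1658, 2660.1, 1302, 3079.7 and 839 in OCM-treated cells. Pyramidal cell 3 stood far above the rest, and the groups overlapped. Rpl36a (chrX:105402867-105405580) was 0, 195, 0, 136 and 0 in pyramidal cells, 0 to 111 with a median of 19.9 in GABAergic cells with glia, 40.8, 442, 239, 507 and 0 in purified and 192, 88.0, 251, 0 and 0 in OCM-treated cells. The purified cells were higher than glia-cultured ones by 3.22. The OCM-treated minus purified difference was -1.80, a value that was -0.70 without OCM-treated cell 4 or 5, -1.16 and -1.11 without purified cell 2 or 4 and -3.36 without purified cell 5. Rpl10a (chr20:7908302-7910867), of the mobile stalk near the exit site of transfer RNA, was 638, 492, 779, 588 and 1314 in purified and 262, 718, 590.3, 238 and 240.4 in OCM-treated cells, with 11.8, 1097, 1725, 359 and 0 in pyramidal cells and 0 to 1309 with a median of 263 in GABAergic cells with glia. The OCM-treated minus purified difference was -0.98, short of the rule, and it passed 1 in size (up to -1.22) when OCM-treated cell 2 or 3 or purified cell 1, 2 or 4 was left out. Rpl35a (chr11:70963224-70967134), a gene mutated in Diamond-Blackfan anaemia, was above 0 in 7 of 21 cells, the fewest of any subunit gene. Those were pyramidal cell 4 with 381, glia-cultured cell 3 with 126, purified cells 1 and 4 with 218 and 538, and OCM-treated cells 1 to 3 with 289.99, 125 and 445.

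In the small subunit, Rps6 and Rpsa were found in nearly all cells. Rps6 (chr5:105197821-105200711), the target of the S6 kinases, was 1604, 236, 5203, 2599.8 and 2105 in pyramidal cells, 823 to 1528 with a median of 1162 in GABAergic cells with glia, 2801, 1683, 3852, 4426 and 639.8 in purified and 1837, 2323, 1819.7, 1643 and 3039.8 in OCM-treated cells. The lowest OCM-treated cell, 1643, lay above the highest glia-cultured cell, 1528, with means of 2133 ± 567 and 1188 ± 272 (SD) and a difference of 0.84 on the log2 scale. The purified cells spread from 639.8 to 4426, with 4 of 5 above the glia-cultured range. Rpsa (chr8:128806095-128809987), also known as the laminin receptor precursor, was 1383, 1179.5, 4866, 3812 and 1474 in pyramidal cells, 152 to 1174 with a median of 499 in GABAergic cells with glia, 1400.5, 838, 844, 1139 and 0 in purified and 1014, 1124, 1279.5, 282 and 710.3 in OCM-treated cells. Every pyramidal cell passed every glia-cultured GABAergic cell, though only narrowly at the edge, where the lowest pyramidal cell had 1179.5 and the highest glia-cultured one 1174. Pyramidal cells 3 and 4 were the highest. The means were 2543 ± 1685 and 569 ± 387 (SD), and the difference was 2.23.

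Rps12 and Rps13 are small-subunit proteins whose OCM-treated minus glia-cultured difference was below 0 with any 1 cell left out. Rps12 (chr1:22758214-22760374) was 0, 879, 557, 75.8 and 0 in pyramidal cells, 0 to 304 with a median of 99.0 in GABAergic cells with glia, 0, 0, 247, 103 and 0 in purified and 112, 261, 0, 0 and 0 in OCM-treated cells. It was at 0 in 3 OCM-treated and 3 purified cells, and the difference of -1.84 ran from -3.10 without OCM-treated cell 2 to -1.09 without OCM-treated cell 3, 4 or 5. Without OCM-treated cell 1 or glia-cultured cell 2 or 3 it was -2.80, and without glia-cultured cell 4 it was -1.15. Rps13 (chr1:185328890-185331335) was 265, 584, 63.1, 405 and 0 in pyramidal cells, 158 to 899 with a median of 596 in GABAergic cells with glia, 445, 281, 137, 239 and 488 in purified and 359.7, 253, 249, 232 and 177 in OCM-treated cells. All but 1 of the glia-cultured cells were above every OCM-treated cell, and the difference was -1.04. It was just short of 1 in size without OCM-treated cell 5 (-0.92) or without any 1 of glia-cultured cells 2 to 5, with -0.88 without cell 4.

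**Figure D5:**
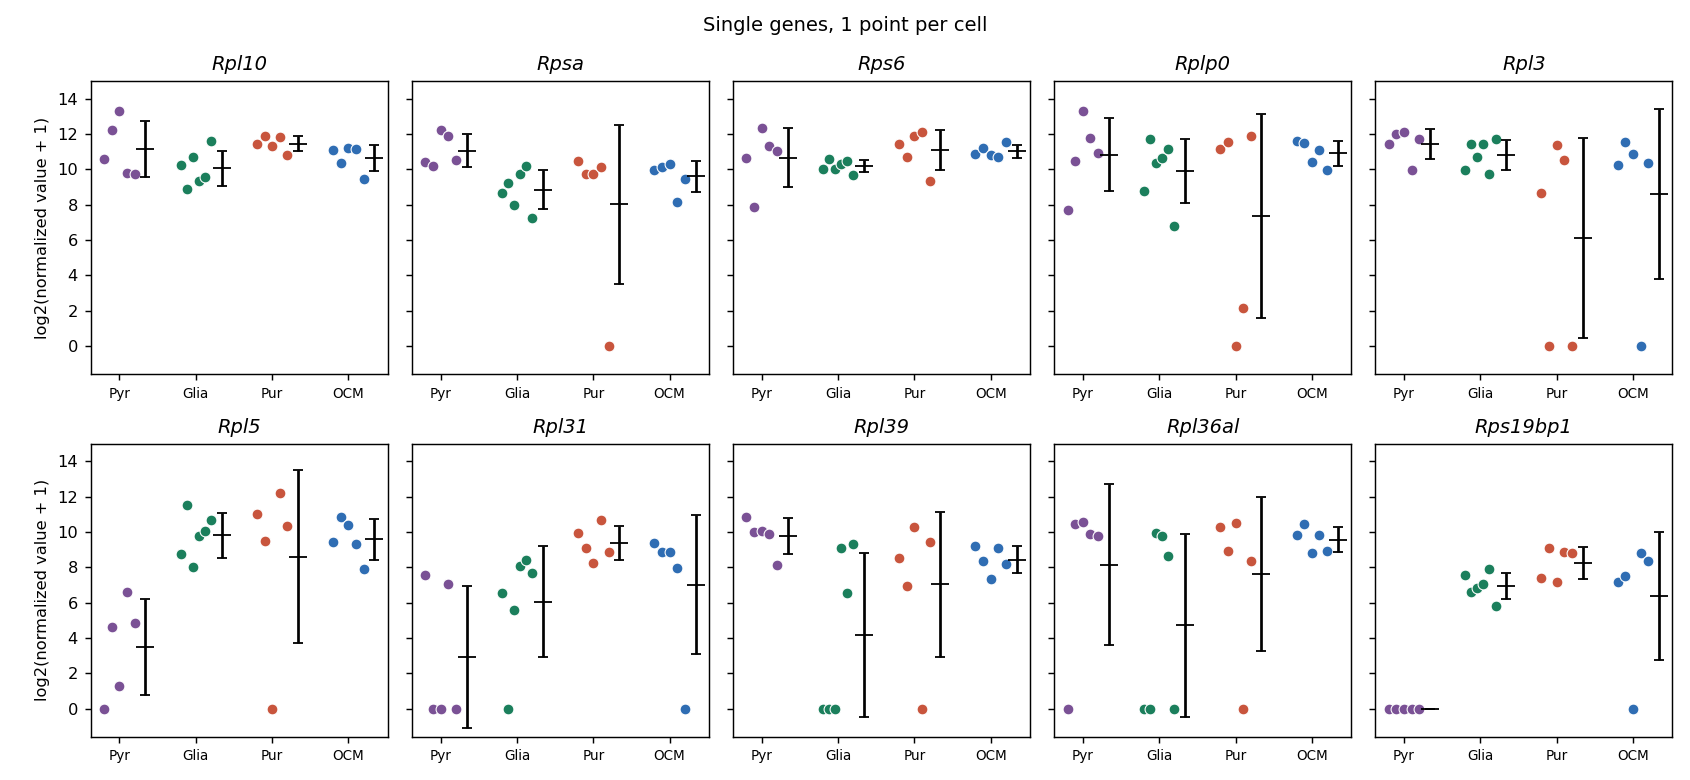
log2(normalized value + 1) per cell for 10 genes, 1 point per cell, in pyramidal (Pyr), glia-cultured GABAergic (Glia), purified (Pur) and OCM-treated (OCM) cells, with the group mean and SD as bars. Pyramidal cells stand low for Rpl5 and at 0 for Rps19bp1, and points at 0 widen the bars of Rplp0, Rpl3, Rpl31, Rpl39 and Rpl36al.

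Of the paralogs, Rpl36al, Rpl22l1 and Rpl7l1 were above 0 in most cells and the other 3 were at or near 0. Rpl36al (chr18:1504178-1505570), a copy of Rpl36a, was 0, 1409.5, 1544, 953 and 884 in pyramidal cells, 0 to 976 with a median of 198 in GABAergic cells with glia, 1269, 484, 1472, 0 and 326 in purified and 907, 1397, 448, 923 and 490.1 in OCM-treated cells. It was at 0 in 3 of 6 glia-cultured cells and above 0 in 5 of 5 OCM-treated cells, a difference of 4.85 (3.91 to 5.90 with any 1 cell left out). Pyramidal cells differed by 3.43, or 5.46 without pyramidal cell 1 and 2.03 without pyramidal cells 3 and 4. Rpl22l1 (chr2:115362799-115364735), the partner copy of Rpl22, was 0, 973, 61.6, 606 and 2021 in pyramidal cells, 0 to 1091 with a median of 266 in GABAergic cells with glia, 509, 2.71, 1552, 189 and 0 in purified and 2171, 1317, 724, 327 and 0 in OCM-treated cells, with at least 1 cell at 0 in each group. Rpl7l1 (chr9:16508775-16516100), a relative of Rpl7, was 0, 0, 578, 1053 and 0 in pyramidal cells, 0 to 1540.3 with a median of 917 in GABAergic cells with glia, 1084, 599, 0, 0 and 0 in purified and 761, 427, 936, 0 and 469.9 in OCM-treated cells. It was at 0 in 3 of 5 purified cells and 1 of 6 glia-cultured cells, which gave a purified minus glia-cultured difference of -4.06. That glia-cultured cell is the only one titled S, and among cells titled S the difference was 4.83. The OCM-treated minus purified difference was 3.55, or 5.40 without OCM-treated cell 4. Rpl3l, which is known from skeletal and heart muscle, had 2 reads in glia-cultured cell 3 and none elsewhere, while Rpl39l and Rps4y2 had none.

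Rps19bp1 (chr7:121488453-121489075), the binding partner of Rps19, was at 0 in all 5 pyramidal cells. In GABAergic cells with glia it was 55.2 to 239 with a median of 121, in purified cells 164, 551, 145, 464 and 446 and in OCM-treated cells 141, 182, 0, 446 and 329. It was above 0 in 15 of 16 GABAergic cells and in no pyramidal cell. Against the mean floor of 3 reads per pyramidal cell (5.96), its glia-cultured mean of 137 makes it at least 23.0-fold lower in pyramidal cells, for counting error only.

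The genes that work with the ribosome were read from lists chosen with earlier results of these data known. Genes named from a list were picked for a large difference in a comparison, so they are not typical of it. Other genes picked this way, some of the opposite direction, are not named. The 8 elongation factors had median differences of -0.78, -0.33, 0.44 and 0.52 in the 4 comparisons in the order above, with 2, 1, 3 and 2 higher and 3, 3, 1 and 0 lower. Of all genes measured, 13.3%, 11%, 56.0% and 20.3% were higher in the same order. The shares of all genes lower were 64.2%, 64.4%, 16.4% and 44.4%. These shares are the background for the counts of every list here. Eef1d, part of the exchange complex of the elongation factor that brings transfer RNA, averaged 1104 ± 790 (SD) in OCM-treated and 584 ± 803 in purified cells, with a difference of 4.99.

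The medians of initiation factors lay near those of all genes. Of 25, 25, 23 and 25 measured, 3, 3, 12 and 5 were higher and 17, 17, 4 and 10 lower, with medians of -2.09, -2.27, 1.74 and -0.61. Eif2s3, a subunit of the factor that brings the initiator transfer RNA, was at 0 in all pyramidal and purified cells and averaged 260.3 ± 209.6 (SD) in glia-cultured and 746 ± 834 in OCM-treated cells. Other messages known to carry the TOP motif, a list that shares Eef1a1, Eef2 and others with the lists above, had medians of -1.72, -1.31, 1.73 and 0.28, with 4, 1, 8 and 3 higher and 9, 10, 1 and 4 lower of 16, 16, 14 and 16. Rack1, a scaffold on the small subunit that is in this list, averaged 206 in pyramidal, 485 in glia-cultured, 488 in purified and 1151 in OCM-treated cells. The sign of the list's median changed in several settings given in the closing section.

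Genes of ribosome assembly and the nucleolus had medians of -2.67, -2.23, 2.08 and -0.64, with 1, 1, 13 and 5 higher and 14, 14, 2 and 7 lower of 19, 20, 18 and 20. Most of all genes measured went the same way in the first 3 comparisons, with 64.2% and 64.4% lower and then 56.0% higher. Nop16, a nucleolar assembly protein, averaged 1703 ± 732 (SD) in glia-cultured, 1.48 ± 3.32 in purified and 1459 ± 1453 in OCM-treated cells. Sbds, which helps release Eif6 from the large subunit, was at 0 in all purified cells and averaged 587 ± 561 in glia-cultured and 844 ± 547 in OCM-treated cells. Genes of mTOR and S6 kinase signalling had medians of -1.63, -3.49, 1.64 and -2.24, with 0, 1, 6 and 3 higher and 9, 7, 3 and 8 lower of 12, 10, 10 and 12. Eif4ebp2, a repressor of cap-dependent translation and a target of mTOR, was at 0 in all pyramidal, purified and OCM-treated cells and averaged 416 ± 538 in glia-cultured cells. The median of all genes had the same sign as that of the assembly and mTOR lists in each comparison.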

How the data were processed

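Per the labels' protocols, the RNA of each neuron was amplified (SMART-Seq v4), and Nextera XT libraries were read as pairs on a NextSeq500. The submitters' processing notes name the build rn6 and the tools DESeq2, SAMtools, Picard, FastQC and STAR 2.4.0. Not given in the sources used here are the read counter, the annotation, the strand setting and how scaling factors were set. Deposited values are a signal per gene, never negative, that the authors name as DESeq2-normalized. In each cell 100% of values were whole multiples of 1 step within 0.05, which gave back whole reads. No molecular identifiers are mentioned, so only counting error is covered by intervals and floors. All 21 columns matched a sample title (0 without a sample). A count test on the recovered reads was not run, because the labels name no animal or culture and it would take cells for replicates.

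The members, gene lists and comparisons were chosen with earlier results of these data known. Shares used all rows of a cell. Differences used a pseudocount of 1 and genes above 0 in at least 3 cells. Named by rule were the 5 genes with the highest mean, per comparison and direction the 2 whose smallest difference with any 1 cell left out was largest (mean of at least 50 in the higher group), paralogs, genes of known role and the genes least often above 0. Of the related lists, up to 4 genes per list and comparison could be named, those with the largest absolute difference past 1. Promoters (250 bases before and 50 after a start) came from RefSeq, GRCr8, matched by symbol, and coordinates in the table are rn6. Alternatives were other pseudocounts, scalings, filters, denominators and member sets, thinning, medians, ratios of means, leaving out cells and cells titled S. Some were chosen after seeing the data: without pyramidal cells 3 and 4, only genes above 0 in every cell, and a total without mitochondrial rows. Some items are not reported here. The scripts were tested on simulated data. Scripts ran in Python 3.11.15 with matplotlib 3.10.9, scipy 1.17.1, pandas 2.3.3 and numpy 2.4.6.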

Additional observations from a re-analysis of the deposited data

Results flagged for a closer look

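Of 92 groups checked (23 named genes and 3 measures per cell), 17 had 1 cell whose gap to its nearest neighbour exceeded Dixon's critical value. The chance rate of that value, about 1 in 20, is for normally distributed values. It does not hold for genes with cells at 0, so the 17 cannot be set against it. Rpl35a and Rpl3l were named for being least often above 0, which makes a lone cell with either likely beforehand. No 1 cell accounts for them, and most are single cells at 0 in a gene that the rest of the group held.

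Among pyramidal cells, cell 1 was at 0 for Rpl36al, where the others had 884 to 1544, and at 0 for Rpl17, where they had 218 to 1041. Cell 4 was the only one with Rpl35a, at 381. Among glia-cultured GABAergic cells, cell 2 was at 0 for Rpl31 (others 46.6 to 334) and for Rpl10a (others 238 to 1309), and cell 6 was at 0 for Rpl7l1 (others 120.0 to 1540.3). Cell 1 was low for Rps13 at 158 (others 585 to 899), and cell 3 was the only one with Rpl35a, at 126, and with Rpl3l, at 1.24.

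Among purified cells, cell 3 was at 0 for Rpl5 (others 720.2 to 4654), cell 4 at 0 for Rpl36al (others 326 to 1472) and cell 5 at 0 for Rpsa (others 838 to 1400.5). Among OCM-treated cells, cell 3 was at 0 for Rps19bp1 (others 141 to 446), cell 4 at 0 for Rpl3 (others 1191 to 3004) and for Rpl7l1 (others 427 to 936), and cell 5 at 0 for Rpl31 (others 252 to 664) and for Rpl22l1 (others 327 to 2171).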

How the results depend on the processing

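No paired analysis was possible because the results come from no test and replicate numbers were given in accession order. With any 1 cell left out, the shares ran from 0.740 to 0.958% in pyramidal, 0.566 to 0.635% in glia-cultured GABAergic, 0.909 to 1.02% in purified and 0.846 to 0.992% in OCM-treated cells, and the share differences from 0.133 to 0.352, 0.302 to 0.417, -0.131 to 0.0222 and 0.240 to 0.386 points in the order of the report. Member medians ran from -0.12 to 0.56, 0.23 to 0.68, -0.01 to 0.44 and 0.29 to 0.80. Counts of higher members ran from 16 to 30, 16 to 25, 20 to 27 and 17 to 27, and of lower members from 18 to 31, 13 to 20, 3 to 11 and 4 to 10. The share of all genes higher ran from 11.4 to 16.6, 9.07 to 14.4, 51.7 to 56.7 and 17.7 to 26.9%. The share of all genes lower ran from 59.3 to 69.3, 61.4 to 69.2, 16.1 to 20.5 and 39.7 to 49.0%.

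With only rows that have a symbol in the total, the share was 1.35% in pyramidal and 1.26% in purified cells, and the differences from glia-cultured GABAergic cells were 0.624 and 0.536 points. Cells titled S gave a pyramidal share difference of -0.0256 points, member medians of 0.020 (purified against glia-cultured) and 0.13 (OCM-treated against glia-cultured), and 8 of 46 (pyramidal, all genes 24.3%) and 13 of 74 (OCM-treated against glia-cultured, 45.7%) lower members. The difference became 4.83 for Rpl7l1 (purified against glia-cultured) and -0.91 for Rpl39 (OCM-treated against glia-cultured). Scaling to one upper quartile gave 9 higher members in the pyramidal comparison (all genes 9.91%), 10 higher (8.63%) and a median of -0.18 for purified against glia-cultured cells, and 3 lower (13.9%) with a median of 0.72 for OCM-treated against purified cells. The median over all genes moved from -2.05 to -2.59, from -2.13 to -2.56 and from 1.40 to 1.81 with that scaling.

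Over genes above 0 in every cell, higher and lower members were 10 and 0 of 26 (all genes 14.5 and 17.6%), 6 and 0 of 34 (7.95 and 14.4%), 0 and 0 of 38 (9.77 and 9.06%), and 4 and 1 of 42 (3.94 and 16.1%) in the 4 comparisons. Medians over cells gave 12 lower members in the pyramidal comparison (all genes 57.3%), 9 for purified against glia-cultured cells (57.1%), 10 higher and 13 lower between OCM-treated and purified cells (42.4 and 12.9%), and 2 lower for OCM-treated against glia-cultured cells (38.9%). The log2 ratio of group means gave 7 and 2 lower in the first 2 comparisons (all genes 38.9 and 39.4%), 4 higher and 3 lower in the next (28.9 and 21.9%), and 10 higher and 1 lower in the last (15.6 and 32.9%). A pseudocount of 10 gave 11 lower for purified (all genes 55.6%) and 3 lower for OCM-treated against glia-cultured cells (37.0%), and one of 0.1 gave 9 in the latter (48.7%). List medians that changed sign were those of initiation factors over genes in every cell (0.16 pyramidal, 0.24 purified against glia-cultured, -0.67 OCM-treated against purified) and by ratio (-0.046 OCM-treated against purified), and other TOP messages: 0.069 by median, 0.67 by ratio and 1.48 over genes in every cell (pyramidal), 0.13 and 0.50 (purified against glia-cultured), and -0.065 by ratio (OCM-treated against purified). The cause of these shifts was not tested.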

Other observations

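One row of the table joins 2 symbols, Colec11 and Rps7, over chr6:47857773-47904437 in rn6, and is outside the symbol rule. Rps7 is a small-subunit protein and Colec11 a secreted collectin. The row was above 0 in 20 of 21 cells and averaged 262 ± 159 (SD, n = 5) in pyramidal, 216 ± 134 (n = 6) in glia-cultured GABAergic, 426 ± 163 (n = 5) in purified and 488 ± 378 (n = 5) in OCM-treated cells. These values cannot be split between the 2 genes, and the groups overlap.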
